A study of Mus musculus with 6 samples.

Results

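Wnt and beta-catenin effectors and targets were followed here in mouse induced pluripotent stem cells (iPSCs) that had lost Tet1, an enzyme that oxidises 5-methylcytosine. The 10 genes were chosen by name, with earlier results of these data known. They are Ctnnb1, the 4 TCF/LEF factors Lef1, Tcf7, Tcf7l1 and Tcf7l2, the receptor Lgr4, and Axin2, Sp5, Nkd1 and Dkk1, which are widely used as readouts of the pathway. All 10 were found among the 48440 genes of the deposited count table, each in 1 row, and 9 of them passed the filter on low counts. Polyadenylated RNA was sequenced from 6 clonal lines, 3 with a Cas9 knockout of Tet1 (clones 14, 30 and 33, replicates 1 to 3) and 3 non-targeted (NT; clones 49, 51 and 52, replicates 1 to 3). The knockout clones are labelled mut/mut for the Cas9 edit of Tet1, and the non-targeted clones carry no such mark. Both groups are male, come from the line iPSC34.3 and are labelled wild type at both copies of a separate Tet1 allele, Tet1tm1Kohx. Both also carry 1 copy of a Pou5f1-EGFP transgene, in which the Pou5f1 promoter region drives green fluorescent protein. The labels give both groups the same treatment text, with 14 passages, transfection of Cas9 protein with a Tet1 guide and a donor oligonucleotide, 12 h with an enhancer of repair, then 4 passages after colonies were picked. Whether the non-targeted clones met the Tet1 guide is not said. All clones were expanded on mouse embryonic fibroblast feeders, and each library is 1 clone of 1 parental line. The p-values therefore set the difference between groups against the spread between such clones.

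In canonical Wnt signalling a Wnt ligand binds a Frizzled receptor and an LRP co-receptor, and the destruction complex built on Axin then stops marking beta-catenin for degradation. Beta-catenin enters the nucleus and binds TCF/LEF factors, which recognise a short DNA motif and act as repressors without it. In mouse embryonic stem cells the pathway supports self-renewal, in large part by relieving repression by Tcf7l1, and at gastrulation it is needed for the primitive streak.

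Axin2 and Sp5 are both taken as direct targets of beta-catenin with TCF, and they had the highest fold changes of the 9 tested members, so the 250 bases before their transcription starts are shown. The sequences are from RefSeq (GRCm38.p6, plus strand), for Sp5 at chr2:70474673-70474922 and for Axin2 at chr11:108920099-108920348. Capitals mark matches on either strand to any of the TCF/LEF heptamers CTTTGAA or CTTTGAT or CTTTGTA or CTTTGTT, which differ from each other in the last 2 letters.
Sp5: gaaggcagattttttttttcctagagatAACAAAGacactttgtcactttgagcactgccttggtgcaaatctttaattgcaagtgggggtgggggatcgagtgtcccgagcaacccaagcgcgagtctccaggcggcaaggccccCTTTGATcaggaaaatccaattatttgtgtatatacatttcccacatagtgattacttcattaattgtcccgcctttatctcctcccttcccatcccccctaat
Axin2: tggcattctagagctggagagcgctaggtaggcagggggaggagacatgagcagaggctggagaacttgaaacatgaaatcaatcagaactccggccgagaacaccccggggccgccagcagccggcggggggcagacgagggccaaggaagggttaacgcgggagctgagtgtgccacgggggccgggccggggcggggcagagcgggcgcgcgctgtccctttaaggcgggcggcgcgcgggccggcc
The Sp5 window held 2 matches, which start 222 and 104 bases before the start and do not overlap. The Axin2 window held none, and its GC content was 69.2%, against 46.0% for Sp5. Of all 32851 RefSeq windows of this length, 14.8% held at least 1 match. All 10 members had a window, and 4 of their 16 windows held a match. Besides that of Sp5 these were the Dkk1 window and windows at internal starts of Lef1 and Tcf7l2. A match here is a run of letters and no measure of binding.

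Total counts were between 11937909 and 16189554 per library. Tet1 (chromosome 10, 62804570 to 62899118) had 365, 231 and 288 CPM (read counts relative to library size, with TMM scaling) in the knockout clones, against 1158, 966 and 1034 CPM in the NT clones (edgeR adjusted p = 0.0703; DESeq2 adjusted p = 9.06e-20). The main test, edgeR's quasi-likelihood test with Benjamini-Hochberg adjustment at 0.05, called 0 of 14664 genes (0%), with 3640 (24.8%) at an unadjusted p under 0.05. DESeq2 called 1247 of the 13677 genes to which it gave an adjusted p (9.12%), 789 higher (5.77%) and 458 lower (3.35%) in the knockout, and limma voom called 1. The edgeR count was 4404 of 15140 genes (29.1%, with 15.1% higher and 14% lower) without knockout replicate 1. It was 0 when any other single library was left out. Among the 9 tested members edgeR called 0, with 4 at an unadjusted p under 0.05, limma voom called 0, and DESeq2 called 2, Axin2 and Sp5. Without knockout replicate 1 edgeR called the same 2. The groups did not overlap in 4 of the 9 tested members, 3 higher and 1 lower in the knockout, where 29.5% of all tested genes (14.8% higher and 14.7% lower) did not overlap. The median log2 fold change (knockout over NT) of the tested members was 0.29, beside 0.00 over all tested genes.

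**Figure D1:**
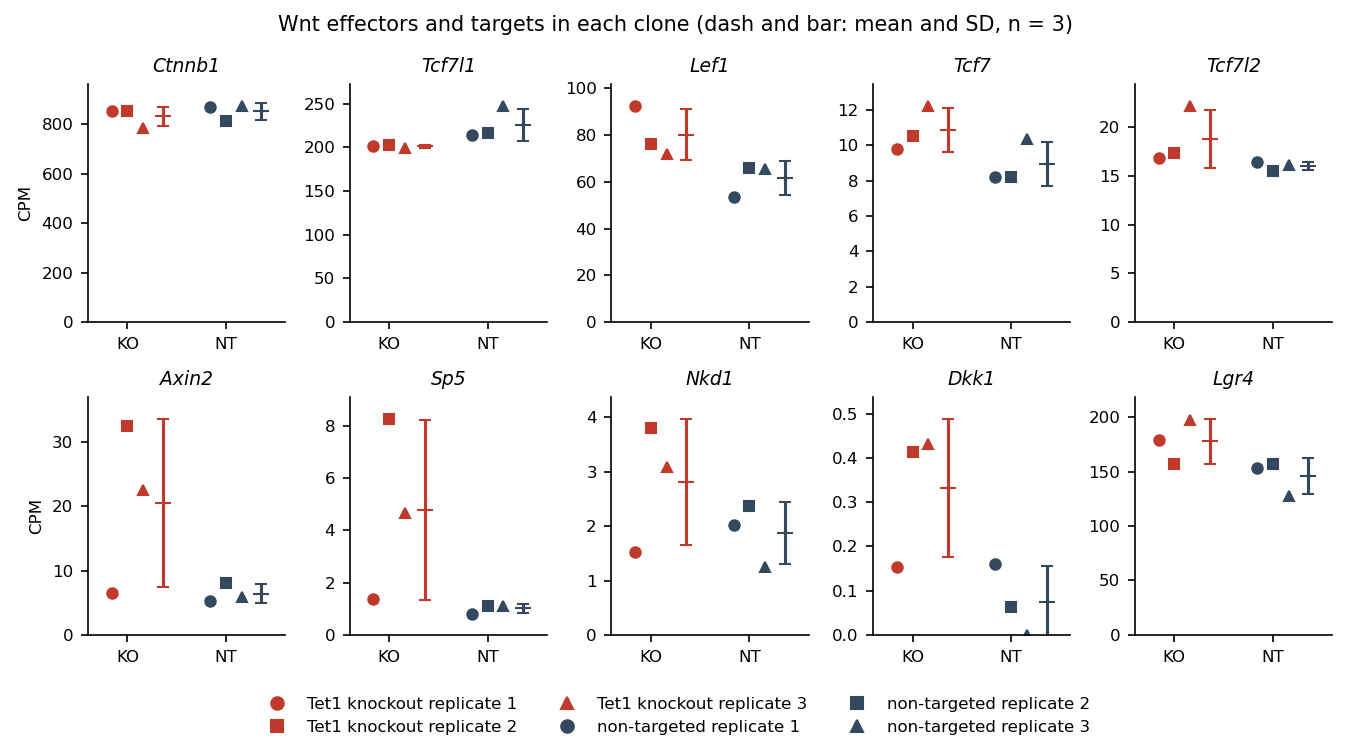
Level of each of the 10 genes in CPM (linear axes from 0, 1 panel a gene) in the 3 Tet1 knockout clones (KO) and the 3 NT clones (NT), with a symbol for each replicate and the mean and SD beside them. Axin2 and Sp5 were high in knockout replicates 2 and 3, while Ctnnb1 and Tcf7l1 kept to narrower ranges.

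The most abundant member was Ctnnb1, which encodes beta-catenin (chromosome 9, 120929216 to 120960507). It had 852, 854 and 786 CPM in the knockout clones, against 871, 811 and 873 CPM in the NT clones. The groups overlapped, and the log2 fold change was -0.04 ± 0.07 (SE; edgeR adjusted p = 0.762), which turned to 0.0035 when knockout replicate 3 was left out. In bulk RNA fewer cells that express a gene and less RNA per cell cannot be told apart. RNA levels also do not show how much beta-catenin protein is stable or nuclear, which is where Wnt signalling acts on it.

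Tcf7l1, the TCF that mainly represses its targets in mouse embryonic stem cells, had the highest CPM per length of the TCF/LEF members (chromosome 6, 72626378 to 72789254). It had 201, 203 and 199 CPM in the knockout clones, against 214, 217 and 247 CPM in the NT clones. Every knockout clone lay below every NT clone, by little, and the knockout clones differed from each other by less than the NT ones. The log2 fold change was -0.17 ± 0.08 (SE; edgeR adjusted p = 0.224; DESeq2 adjusted p = 0.297), so the difference did not pass either test.

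Lef1, mostly an activator with beta-catenin, lies on chromosome 3 (131110471 to 131224356). It had 92.5, 76.2 and 72.1 CPM in the knockout clones, against 53.5, 66.1 and 65.4 CPM in the NT clones. The groups did not overlap, and its highest clone was knockout replicate 1, the clone in which Axin2 and Sp5 were lowest among the knockouts. Its log2 fold change was 0.38 ± 0.13 (SE; edgeR adjusted p = 0.147; DESeq2 adjusted p = 0.112), and neither test called it.

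Tcf7, which encodes TCF1, and Tcf7l2, which encodes TCF4, had lower CPM than Tcf7l1 and Lef1. Tcf7 had 9.81, 10.5 and 12.2 CPM in the knockout clones, against 8.23, 8.24 and 10.4 CPM in the NT clones (log2 fold change 0.28 ± 0.18 SE; edgeR adjusted p = 0.350). Its counts cover only part of the gene. On the same strand 55.9% of its body, and 88.7% of its exon bases in GENCODE M21, lie within the longer gene Gm26551, where featureCounts by default leaves reads out as ambiguous. The CPM of Tcf7 may therefore understate its expression. Tcf7l2 had 16.8, 17.3 and 22.1 CPM in the knockout clones, against 16.4, 15.5 and 16.1 CPM in the NT clones (0.23 ± 0.15 SE; edgeR adjusted p = 0.366). The knockout clones of Tcf7l2 all lay above the NT clones, 2 of them by little. In the other members at most 0.443% of exon bases were shared with another gene on the same strand.

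Axin2, a scaffold of the destruction complex that beta-catenin induces as negative feedback, lies on chromosome 11 (108920349 to 108950783). It had 85, 392 and 314 reads in knockout replicates 1 to 3, or 6.52, 32.4 and 22.6 CPM. The NT clones had 5.25, 8.11 and 5.84 CPM. Knockout replicates 2 and 3 stood well above every NT clone, while replicate 1 lay within the NT range. The log2 fold change was 1.67 ± 0.52 (SE; edgeR adjusted p = 0.134). Axin2 rose in DESeq2 (1.67, adjusted p = 0.0120). Without knockout replicate 1 the log2 fold change was 2.09 and edgeR called it too (adjusted p = 0.000856).

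Sp5, a zinc finger factor of the Sp family that acts downstream of Wnt (chromosome 2, 70474923 to 70477729), followed the same order of clones. It had 18, 100 and 65 reads in knockout replicates 1 to 3, or 1.38, 8.27 and 4.67 CPM. The NT clones had 10, 18 and 16 reads, or 0.807, 1.12 and 1.11 CPM. In CPM every knockout clone was above every NT clone. Knockout replicate 1 and NT replicate 2 had 18 reads each, however, so their order rests on library size alone. The log2 fold change was 2.21 ± 0.61 (SE; edgeR adjusted p = 0.123). Sp5 rose in DESeq2 (2.22, adjusted p = 0.0101), and edgeR called it without knockout replicate 1 (2.64, adjusted p = 0.00168).

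The DESeq2 calls of Axin2 and Sp5 were lost in 4 of the 6 fits that left out 1 library. Both were kept without knockout replicate 1 (28.5% of all genes called) and without NT replicate 2 (5.52%; DESeq2 adjusted p = 0.0262 and 0.0456). For Axin2 the DESeq2 adjusted p was 0.215 when knockout replicate 2 was left out and 0.368 for knockout replicate 3, and it was 0.136 for NT replicate 1 and 0.150 for NT replicate 3. For Sp5 the DESeq2 adjusted p was 0.224, 0.0740, 0.116 and 0.106 in those fits, in the same order. In the same 4 fits DESeq2 called 2.13%, 1.89%, 1.57% and 0.979% of all genes. The fold changes stayed positive in every fit that left out 1 library, between 1.18 and 2.09 for Axin2 and between 1.57 and 2.65 for Sp5 in DESeq2.

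**Figure D2:**
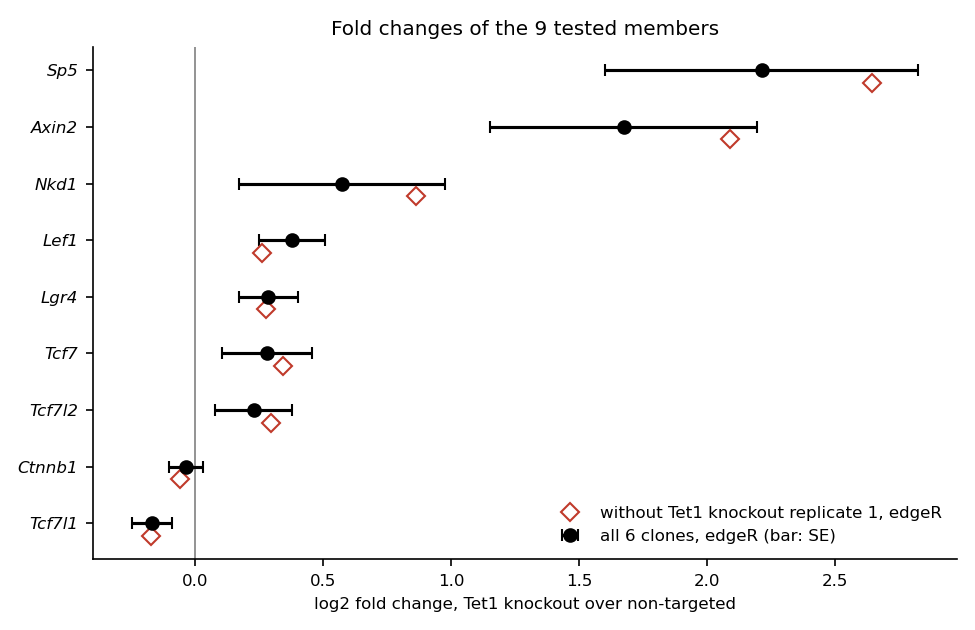
Log2 fold change, Tet1 knockout over NT, of the 9 tested genes in edgeR with all 6 clones (filled circles, bars show the SE) and without knockout replicate 1 (open diamonds). Sp5 (2.21) and Axin2 (1.67) lie apart from the rest, which lie between -0.17 and 0.57.

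Nkd1, which binds Dishevelled and dampens the pathway, gave low counts (chromosome 8, 88521354 to 88594884). It had 20, 46 and 43 reads in the knockout clones, or 1.53, 3.81 and 3.09 CPM, against 2.02, 2.37 and 1.25 CPM in the NT clones. Knockout replicates 2 and 3 were again the highest clones, and replicate 1 lay within the NT range. Its log2 fold change was 0.57 ± 0.40 (SE; edgeR adjusted p = 0.401), and without knockout replicate 1 it was 0.86 (edgeR adjusted p = 0.0870). Neither fit called it.

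Dkk1, a secreted antagonist that binds LRP5 and LRP6, was barely detected and was the member removed by the filter on low counts (chromosome 19, 30545863 to 30549665). It had 2, 5 and 6 reads in the knockout clones, against 2, 1 and 0 reads in the NT clones. The sums of 13 and 3 reads gave a CPM ratio of 4.75, with an exact 95% interval of 1.31 to 26.0 that covers counting error only and not the spread between clones. DESeq2 gave it no adjusted p. With no filter the edgeR adjusted p was 0.293.

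Lgr4, the receptor for R-spondins that potentiates Wnt signals, was highly expressed (chromosome 2, 109917647 to 110014257). It had 179, 157 and 198 CPM in the knockout clones, against 153, 157 and 127 CPM in the NT clones. The groups met at knockout replicate 2, which was just under NT replicate 2. Its log2 fold change was 0.29 ± 0.12 (SE; edgeR adjusted p = 0.187; DESeq2 adjusted p = 0.208), which neither test called.

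Levels of different members were compared per kb. Reads were counted over whole gene bodies, so CPM per kb of listed length is low for genes with long introns, and the order on merged GENCODE M21 exons is given beside it. Both lengths of Tcf7 include the part within Gm26551 (55.9% of its body and 88.7% of its exon bases), where reads are left out by default. Its place in either order may therefore be too low. Per kb of listed length Ctnnb1 was highest, at 26.5 ± 1.25 CPM per kb in the knockout and 27.2 ± 1.11 in the NT clones (SD, n = 3). Lgr4 (1.84 ± 0.213 in the knockout and 1.51 ± 0.167 in NT) and Tcf7l1 (1.23 ± 0.0119 in the knockout and 1.39 ± 0.112 in NT) came far below it. In the NT clones Lef1, Sp5, Tcf7, Axin2, Tcf7l2, Nkd1 and Dkk1 followed in that order, and the ranges of Lgr4 and Tcf7l1, of Sp5 and Tcf7, and of Nkd1 and Dkk1 overlapped. In the knockout clones Sp5 ranked next after Lgr4, with 1.70 ± 1.23 CPM per kb against 0.361 ± 0.0639 in the NT clones. Its range there overlapped that of Tcf7l1, the next in the order. Per kb of exon the NT order was Ctnnb1, Tcf7l1, Lgr4, Lef1, Tcf7, Tcf7l2, Axin2, Sp5, Nkd1 and Dkk1, and the ranges of Sp5 and Nkd1 overlapped. In the knockout it was Ctnnb1, Tcf7l1, Lgr4, Lef1, Tcf7, Axin2, Sp5, Tcf7l2, Nkd1 and Dkk1, so that Sp5 stood at rank 7, against rank 3 on listed length. The knockout ranges of Tcf7 and Axin2, of Axin2 and Sp5, and of Sp5 and Tcf7l2 overlapped on exons. On that scale Axin2 had 3.72 ± 2.38 and Sp5 2.27 ± 1.64 CPM per kb in the knockout, against 1.16 ± 0.275 and 0.483 ± 0.0854 in the NT clones.

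The rest of the pathway was read from 7 lists of 114 further genes, of which 91 were tested. These lists too were written with earlier results of these data known, so their counts and medians are descriptive only. EdgeR called 0 of them, with 33 at an unadjusted p under 0.05, where 24.8% of all tested genes were. DESeq2 called 16 of 86 with an adjusted p, of which 14 rose and 2 fell (9.12% of all genes were called, 5.77% higher and 3.35% lower). Without knockout replicate 1 edgeR called 49 of 95 (36 higher and 13 lower), where it called 29.1% of all genes. With 1 library left out the DESeq2 count was 46 without knockout replicate 1 (28.5% of all genes called) and 13 without NT replicate 2 (5.52%). It was 2 without knockout replicate 3 (1.89%), and 3 without knockout replicate 2 (2.13%), NT replicate 1 (1.57%) or NT replicate 3 (0.979%). The median log2 fold change over the 91 tested genes was 0.25, beside 0.00 over all tested genes.

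Among the ligands and the 2 genes of their secretion, Porcn and Wls, 13 of 21 were tested. Of the 11 with a DESeq2 adjusted p 3 rose and 1 fell, beside 5.77% and 3.35% of all genes. Wnt3, the ligand needed for primitive streak formation in the mouse, had 0.767, 9.51 and 8.20 CPM in the knockout clones, against 0.161, 1.87 and 0.487 CPM in the NT clones. Knockout replicate 1 lay below NT replicate 2, and DESeq2 gave an adjusted p of 0.0234 (log2 fold change 2.85; edgeR adjusted p = 0.154). Wls, the carrier that takes Wnt proteins to the cell surface, had 5.67, 22.1 and 25.5 CPM in the knockout, against 3.63, 7.42 and 4.80 CPM in NT (DESeq2 adjusted p = 0.0118). Wnt9a rose in DESeq2 (1.79, adjusted p = 0.0230), at 1.84, 2.32 and 5.61 CPM in the knockout clones and 0.834 to 1.05 CPM in the NT clones. Wnt7b fell in DESeq2 (-0.80, adjusted p = 0.0192), with 15.6, 14.6 and 17.1 CPM in the knockout clones, against 18.7, 33.8 and 29.6 CPM in the NT clones. All 3 knockout clones were below the NT clones for this ligand. The median of the list was 1.16, and it was 0.47 without knockout replicate 3 and 1.65 without knockout replicate 1.

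Of 23 receptors, co-receptors and R-spondins 19 were tested, 17 of them above 0 (median log2 fold change 0.54). The 2 below 0, Fzd5 and Lrp6, are named after their values were seen. Fzd5 had 232, 111 and 98.8 CPM in the knockout clones, against 270, 192 and 245 CPM in the NT clones. Lrp6 had 281, 109 and 107 CPM, against 266, 244 and 231 CPM. EdgeR did not call them (adjusted p = 0.228 and 0.342), but without knockout replicate 1 it called both lower (adjusted p = 0.00122 and 0.000203). In that fit edgeR called 12 of the 19 higher and only these 2 lower, beside 15.1% and 14% of all genes. The groups did not overlap in 10 of the 19, all higher in the knockout, beside 14.8% of all tested genes higher and 14.7% lower. In the transducers and destruction complex 8 of 19 were higher and 1 lower without overlap. In the ligands 1 of 13 was higher and 2 lower, and in the further targets 1 of 14 was higher and 1 lower. The antagonists had 3 of 9 higher and 0 lower, and the cofactors 2 of 13 higher and 2 lower. In the list of genes repressed by Tcf7l1 0 of 4 were higher and 1 lower. In DESeq2 4 of the 18 receptors, co-receptors and R-spondins with an adjusted p rose and 0 fell, beside 5.77% and 3.35% of all genes. Fzd1, a Frizzled receptor, had 4.60, 7.45 and 9.85 CPM in the knockout clones, against 1.21, 2.75 and 2.85 CPM in the NT clones (DESeq2 adjusted p = 0.00430; edgeR adjusted p = 0.110). Ryk, Ror1 and Ror2, receptors that bind Wnt proteins outside the Frizzled family, also rose in DESeq2, with log2 fold changes of 0.60, 1.74 and 0.75 (adjusted p = 0.0206, 0.0344 and 0.0210). Ror2 had 39.1, 70.7 and 62.6 CPM in the knockout clones, against 30.5, 36.5 and 35.0 CPM in the NT clones.

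Of 17 secreted and membrane antagonists 9 were tested in edgeR, 6 of them above 0. In DESeq2 2 of the 10 with an adjusted p rose, beside 5.77% of all genes. Sfrp2, a secreted protein that binds Wnt ligands, had 25.4, 45.9 and 50.2 CPM in the knockout clones, against 13.4, 20.5 and 12.4 CPM in the NT clones. No knockout clone overlapped the NT range, and the log2 fold change was 1.39 ± 0.30 (SE; edgeR adjusted p = 0.108; DESeq2 adjusted p = 0.000482). It was also called by edgeR with no filter on low counts (adjusted p = 0.0403). Dkk2, a relative of Dkk1 that edgeR's filter removed, had 0.920, 0.662 and 4.46 CPM in the knockout clones, against 0.161, 0.0624 and 0.417 CPM in the NT clones (DESeq2 adjusted p = 0.0206).

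The cytoplasmic transducers and destruction complex had a median log2 fold change of 0.06, with all 19 genes tested. Dvl1, a Dishevelled protein that relays the signal from Frizzled, rose in DESeq2 (0.88, adjusted p = 0.00900), with 25.9, 35.2 and 44.4 CPM in the knockout clones, against 15.6, 22.1 and 19.5 CPM in the NT clones. Nkd2, a relative of Nkd1, also rose in DESeq2 (0.96, adjusted p = 0.0353), with 5.44, 4.96 and 4.89 CPM in the knockout, against 1.94, 3.24 and 2.57 CPM in NT. For Nkd2 the 3 knockout clones lay close together, unlike Axin2 and Sp5, with replicate 1 the highest. Of 14 nuclear cofactors and corepressors 13 were tested, with a median of 0.08. In DESeq2 1 of 13 rose and 1 fell, beside 5.77% and 3.35% of all genes. Jup, which encodes plakoglobin, a close relative of beta-catenin found in junctions, fell in DESeq2 (adjusted p = 0.000961). It had 199.1, 199.6 and 201 CPM in the knockout clones, against 259, 270.3 and 303 CPM in the NT clones (log2 fold change -0.47 ± 0.08 SE; edgeR adjusted p = 0.106), and edgeR called it with no filter on low counts (adjusted p = 0.0401). Bcl9l, a cofactor that links beta-catenin to Pygopus, rose in DESeq2 (0.96, adjusted p = 0.0145), with 31.6, 60.1 and 71.6 CPM in the knockout, against 27.0, 30.3 and 26.3 CPM in NT.

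**Figure D3:**
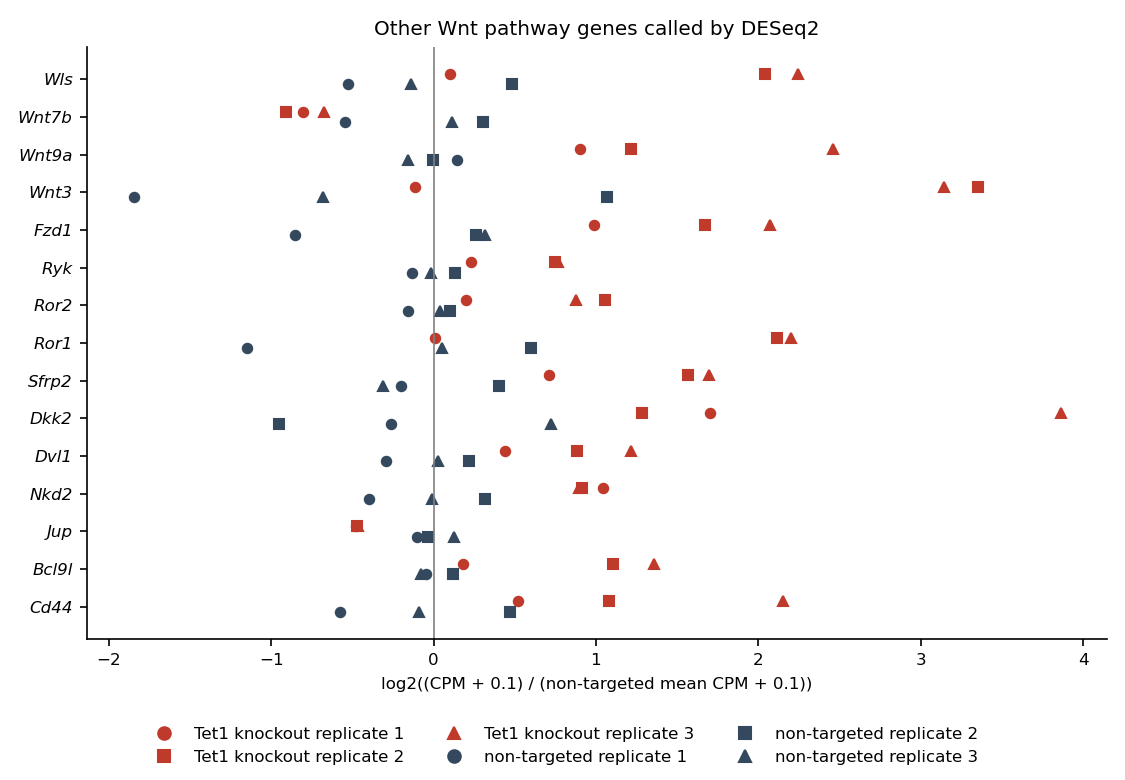
Per-clone level of the further Wnt pathway genes called by DESeq2 and named in the text, as log2((CPM + 0.1) / (NT mean CPM + 0.1)), for the 3 knockout and 3 NT clones (symbols give replicates). Wnt7b and Jup lie to the left in all knockout clones, and for most of the other genes knockout replicates 2 and 3 lie farther right than replicate 1.

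Of 16 further beta-catenin targets 14 were tested, 13 of them above 0 (median log2 fold change 0.47). In DESeq2 2 of the 11 with an adjusted p rose, beside 5.77% of all genes. Cd44, a hyaluronan receptor, had 15.1, 22.3 and 47.0 CPM in the knockout clones, against 7.02, 14.6 and 9.87 CPM in the NT clones (DESeq2 adjusted p = 0.0151; edgeR adjusted p = 0.134). T, the T-box factor brachyury of the primitive streak, is named after its values were seen. It had 1.92, 48.9 and 22.9 CPM in the knockout clones, against 1.61, 5.12 and 1.18 CPM in the NT clones, and neither test called it (DESeq2 adjusted p = 0.0669; edgeR adjusted p = 0.142). Without knockout replicate 1 edgeR called it (adjusted p = 0.00218). Its order of knockout clones was that of Axin2 and Sp5.

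The 4 genes listed here as repressed by Tcf7l1 in mouse embryonic stem cells, a chosen list and not all its targets, were below 0 on the log2 scale (median -0.70). None was called by edgeR or DESeq2. Of the 4, 0 were at an unadjusted edgeR p under 0.05, beside 24.8% of all tested genes. Tfcp2l1, a naive pluripotency factor, had 352, 319 and 130.4 CPM in the knockout clones, against 485, 403 and 430.5 CPM in the NT clones (edgeR adjusted p = 0.217). Esrrb, a nuclear receptor of the same network, had 698, 424 and 223 CPM in the knockout, against 778, 638 and 748 CPM in NT (edgeR adjusted p = 0.264). Knockout replicate 3 was the lowest clone for both genes, and the median of the list was -0.38 without it and -1.07 without knockout replicate 1. With knockout replicate 1 left out edgeR called 3 of the 4 lower, where 14% of all genes were, with Tfcp2l1 at an adjusted p of 0.0409 and Esrrb at 0.00845.

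**Figure D4:**
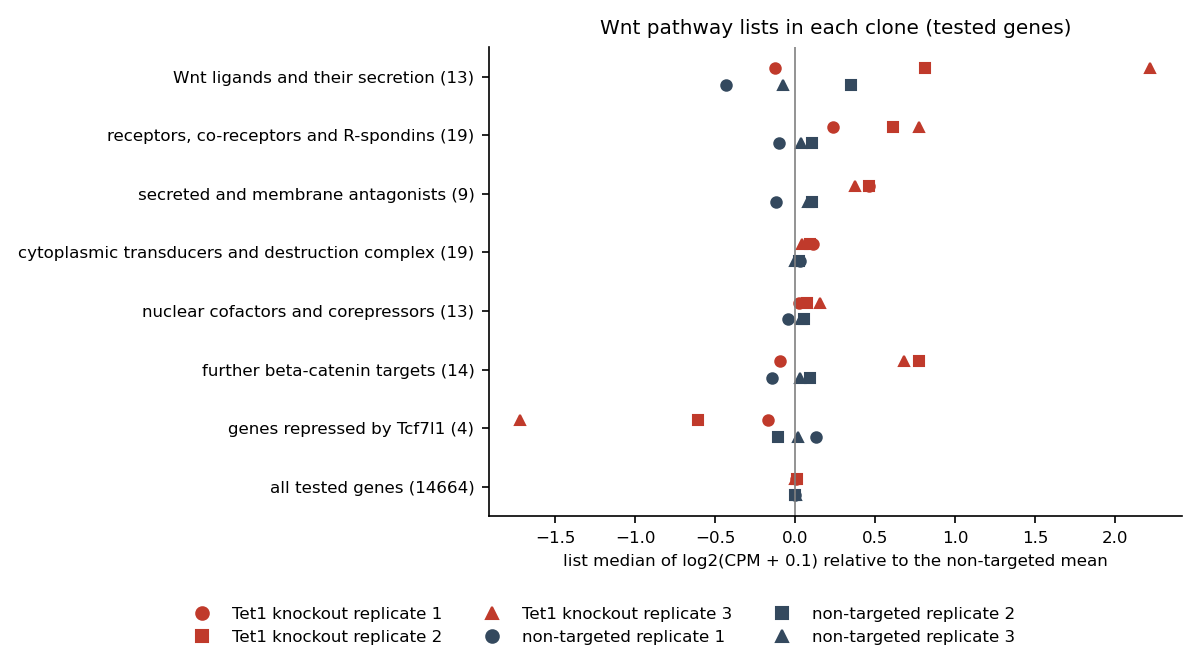
Median of log2(CPM + 0.1) relative to the NT mean in each clone, over the tested genes of each Wnt pathway list (number in brackets) and over all tested genes. Ligands, receptors and further targets were highest in knockout replicates 2 and 3, while the transducers, cofactors and all tested genes lay close to 0 in every clone.

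Levels of other cell types' markers moved between the same clones, and their DESeq2 counts stand beside 5.77% of all genes called higher. The 8 primitive streak markers summed to 13.6, 50.6 and 37.2 CPM in knockout replicates 1 to 3, against 9.60, 15.5 and 8.41 CPM in the NT clones. Their order among the knockout clones was that of Axin2 and Sp5. In that list Eomes rose in DESeq2 (log2 fold change 1.35, adjusted p = 0.00366), 1 of the 4 with an adjusted p, Mesp1 was at 0 in 5 of the 6 clones, and Lhx1 was at 0 in NT replicates 1 and 3. Of its 5 genes tested in edgeR 4 had a log2 fold change above 0 and 1 below. The 16 fibroblast markers summed to 212, 229.8 and 625 CPM in the knockout clones, against 106, 165 and 152 CPM in the NT clones. They were highest in knockout replicate 3, where Axin2 and Sp5 were second, and 7 of 14 with an adjusted p rose in DESeq2, while Fap was at 0 in 2 NT clones. The 10 primitive endoderm markers summed to 517, 476 and 683 CPM in the knockout clones, against 408, 459 and 472 CPM in the NT clones, with 4 of 9 rising in DESeq2 and Sox17 at 0 in 1 clone. This list was mixed, with 7 tested genes at an edgeR log2 fold change above 0 and 2 below. The 10 pluripotent markers were present in every clone and summed to 4092, 3002 and 2724 CPM in the knockout, against 4114, 3682 and 4123 CPM in NT. Of the 10, 0 were called by DESeq2 or edgeR, with 4 at an unadjusted edgeR p under 0.05, beside 24.8% of all tested genes. Without knockout replicate 1 edgeR called 8 of the 10 lower, where it called 14% of all genes lower. The part of these cell types in the levels of the Wnt genes was not tested.

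**Figure D5:**
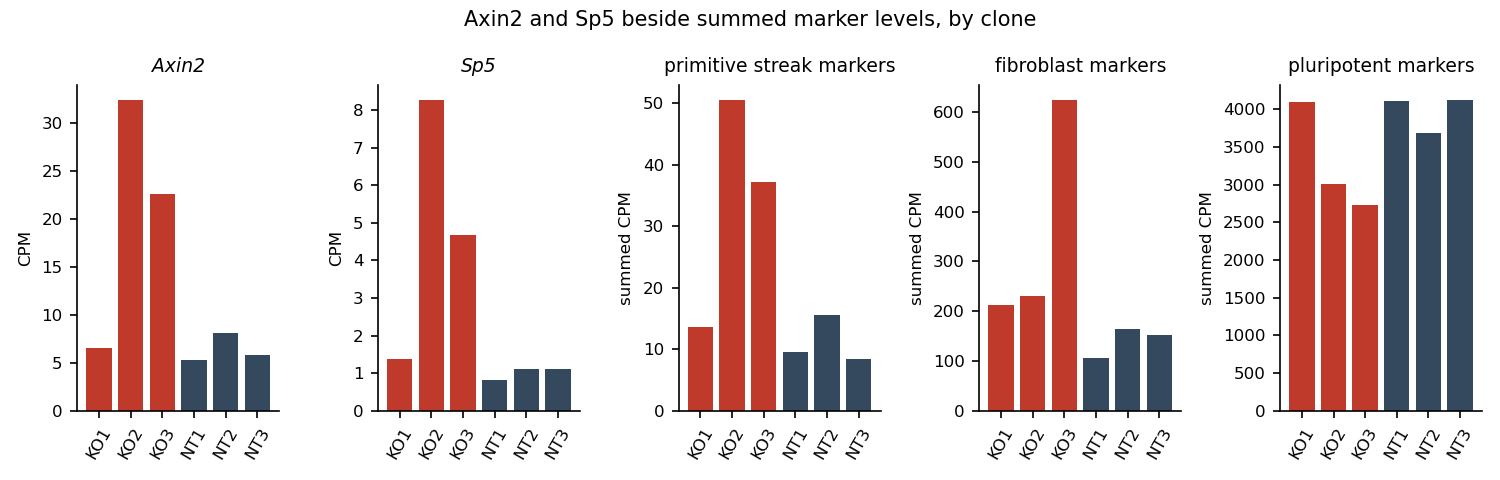
Level of Axin2 and Sp5 (CPM) and summed CPM of the primitive streak, fibroblast and pluripotent marker lists in each clone, with the Tet1 knockout clones (KO1 to KO3) left of the NT clones (NT1 to NT3), and all bars from 0. Axin2, Sp5 and the streak markers were highest in KO2, and the fibroblast markers in KO3.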

How the data were processed

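The authors deposited raw counts of reads per gene for 6 libraries, with no normalization. Per the file headers, they were made with featureCounts 1.6.2 over whole gene bodies, reverse-stranded, with GENCODE M15 on GRCm38.p5. HISAT2 2.1.0, featureCounts 1.5.3 and the mm10 build are named in the submitters' processing notes, so the version of featureCounts differs between the sources. No option for reads that overlap several genes is set in the header. Per the labels' protocols, the kit was stranded, and all 6 libraries are labelled as 1 sequencing batch. The other deposited value used is the gene length.

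Genes were kept with filterByExpr (minimum count 10, minimum total 15), which left 14664 of 25600 with a count. Libraries were scaled by TMM. The groups were compared with edgeR 4.0.16 (quasi-likelihood, group only, common biological coefficient of variation 0.188), with limma 3.58.1 (voom) and DESeq2 1.42.0 as alternatives, in R 4.3.3. P-values were adjusted over all genes, and the fits were tested on simulated data. SEs were taken as the absolute log2 fold change over the root of F. Totals of 11937909 to 16189554 counts limit precision for genes with few reads.

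The members and all lists were chosen with earlier results of these data known. Named are all members, up to 4 called genes a list, and, for a list without a call, the 2 of smallest edgeR p. T, Fzd5 and Lrp6 were added after their values were seen. Of the called list genes 1 is counted but not reported here by name.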

Additional observations from a re-analysis of the deposited data

How the results depend on the processing

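With edgeR, 0 genes were called in all, among the members and in the 7 Wnt lists. Over all genes this became 1247 in DESeq2, 1 in limma voom, 159 with no filter on low counts, 3 with the replicate block, and 0 to 4404 when 1 library was left out. Among the members it became 2 in DESeq2 and 0 to 2 with 1 library left out, and in the lists 16 in DESeq2, 2 with no filter and 0 to 49 with 1 library left out. Leaving out 1 library within DESeq2, which was chosen after seeing the data, gave 127 to 4122 genes in all, 0 to 2 members and 2 to 46 list genes. The log2 fold change of Axin2 passed in DESeq2 (1.67) and ranged from 1.19 to 2.09 with 1 library left out (1.18 to 2.09 in DESeq2), and that of Sp5 passed in DESeq2 (2.22) and ranged from 1.58 to 2.64 (1.57 to 2.65 in DESeq2). That of Ctnnb1 ranged from -0.075 to 0.0035. The median of the antagonists was 0.77 with no filter and 0.36 to 0.70 with 1 library left out. The cause of these shifts was not tested. Scaling by relative log expression or by total counts changed no call. The clones were not paired, since nothing in the labels ties same-numbered clones to each other. Deviations of same-numbered clones correlated at 0.458, 0.109 and -0.0239, and those of differently numbered clones at -0.464 to 0.459. With 3 clones a group these values cannot decide whether clones are paired. With the replicate block the log2 fold changes were 1.49 for Axin2 and 2.06 for Sp5, neither called. Levels per kb of exon were also chosen after seeing the data. Depth limits Dkk1, Sp5 and Nkd1 most.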
